A study of Mus musculus with 4 samples.

Results

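Sox9, Lhx2, Nfatc1, Foxc1, Foxp1, Tbx1, Runx1, Trp63, Nfib and Nfix encode transcription factors known from hair follicle stem cells (HFSC), and their chromatin is described here in HFSC labelled Irx5KO and WT. The 10 genes were chosen by name from 21887 protein-coding genes, and every open region listed within the gene body or 50 kb to either side was collected for each. The assay was ATAC-seq, which tags accessible DNA with the transposase Tn5, on mouse HFSC from 2 Irx5KO and 2 WT samples. Flow cytometry had selected cells with CD34 and a marker written CD45f but without Ly-6A/E, and which protein CD45f is remains unstated. Irx5 encodes a homeodomain factor of the Iroquois family. The labels give the genotypes only as Irx5KO and WT, with no allele, strain, age or sex. The deposited data are 1 peak list per genotype that joins both samples. No spread between samples can therefore be given, no test between genotypes was run, and genotype, library preparation and depth cannot be told apart. Intervals in parentheses are 95% Wilson intervals and cover counting error only.

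Between hair cycles HFSC stay quiescent in the bulge, and a new cycle begins when they are activated. Their state is held by a set of transcription factors that bind one another's genes and the same enhancers, which in these cells are often large clusters of open sites far from promoters. Some of the factors set epithelial and stem cell identity, some keep the cells at rest, and Runx1 is known for promoting their activation.

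A peak was called shared when it overlapped a peak of the other list by at least 1 bp, and otherwise Irx5KO-only or WT-only. The lists held 484992 Irx5KO and 498061 WT peaks on the 21 standard chromosomes of mm10. Each peak carries a score set by the authors. It is given below only as a percentile, meaning the percentage of peaks in the same list with that score or a lower one. A peak on 1 list only can be open in the other genotype below the listing threshold. In such lists, more cells with an open site and more opening per cell cannot be told apart. Gene-end peaks of HFSC marker genes (Cd34, Krt15, Krt5, Krt14, Itga6 and Lgr5) were listed for 6 of 6 in both genotypes. For markers of other cells, listed in Irx5KO and in WT, these were 3 and 1 of 3 interfollicular, 0 and 2 of 3 immune, 2 and 1 of 3 fibroblast, 0 and 1 of 2 endothelial and 1 and 3 of 3 melanocyte genes. Ly6a, counted as interfollicular, carried 4 such peaks in each list. Genome-wide, 75.2% of protein-coding genes were marked this way in both lists. The count of 6 of 6 alone therefore does not tell HFSC from other cells. The part of other cells in the results below was not tested.

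Start sites are described first, with the sequences of some of them. RefSeq promoters of GRCm38, the assembly also called mm10, were found for 6 of the 10 genes, with 14 starts in all. Both lists had a peak on the promoter (250 bases before to 50 after the start) at 6 of the 14 starts, the Irx5KO list alone at 2, and neither list at 6. Over 32851 promoters of the table these shares were 46.9%, 6.26% and 43.5%. Printed below are the 240 bases from 250 to 11 before 5 of the starts, each read 5′ to 3′ on the strand of its gene. They were picked, after their values were seen, to show a start open in both lists, in Irx5KO only and in neither. Capitals mark bases inside peaks of both lists, except for Tbx1, where they mark bases inside the Irx5KO-only peak.
Lhx2, chr2:38339031-38339270, plus strand: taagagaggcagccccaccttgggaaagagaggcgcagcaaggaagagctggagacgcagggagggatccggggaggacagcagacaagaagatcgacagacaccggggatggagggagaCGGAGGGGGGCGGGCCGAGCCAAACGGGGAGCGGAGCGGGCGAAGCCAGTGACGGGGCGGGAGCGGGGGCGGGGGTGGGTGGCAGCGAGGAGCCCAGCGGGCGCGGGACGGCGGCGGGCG
Foxc1, chr13:31806396-31806635, plus strand: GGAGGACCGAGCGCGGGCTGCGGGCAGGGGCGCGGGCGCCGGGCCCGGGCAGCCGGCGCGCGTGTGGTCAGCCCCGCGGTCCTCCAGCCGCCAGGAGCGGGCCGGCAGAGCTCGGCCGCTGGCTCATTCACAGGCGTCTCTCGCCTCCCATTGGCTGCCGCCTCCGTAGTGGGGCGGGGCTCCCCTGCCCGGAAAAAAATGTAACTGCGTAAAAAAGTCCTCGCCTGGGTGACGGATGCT
Tbx1, chr16:18590682-18590921, minus strand: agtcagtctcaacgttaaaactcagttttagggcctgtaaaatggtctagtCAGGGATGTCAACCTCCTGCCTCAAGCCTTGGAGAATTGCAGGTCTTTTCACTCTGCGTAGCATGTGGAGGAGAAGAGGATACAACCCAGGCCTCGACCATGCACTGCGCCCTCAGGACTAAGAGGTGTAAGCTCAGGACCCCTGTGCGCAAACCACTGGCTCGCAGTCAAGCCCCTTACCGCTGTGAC
Runx1 inner start, chr16:92697340-92697579, minus strand: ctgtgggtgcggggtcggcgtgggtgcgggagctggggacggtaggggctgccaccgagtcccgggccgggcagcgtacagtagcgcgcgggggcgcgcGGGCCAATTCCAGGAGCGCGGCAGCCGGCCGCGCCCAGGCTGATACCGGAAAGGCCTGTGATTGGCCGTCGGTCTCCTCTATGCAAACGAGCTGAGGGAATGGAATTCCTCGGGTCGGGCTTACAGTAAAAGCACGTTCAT
Runx1 distal start, chr16:92826085-92826324, minus strand: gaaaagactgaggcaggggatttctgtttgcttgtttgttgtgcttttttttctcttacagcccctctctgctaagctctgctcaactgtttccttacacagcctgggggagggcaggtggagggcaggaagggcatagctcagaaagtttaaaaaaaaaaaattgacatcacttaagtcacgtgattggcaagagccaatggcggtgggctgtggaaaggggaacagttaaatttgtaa

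At the first start of Lhx2 the Irx5KO peak ran from 38339071 to 38339780 (710 bp) and the WT peak from 38339151 to 38339590 (440 bp). The printed bases lie at the edge of both peaks, with 120 of 240 inside, and hold 24 CpG. At Foxc1 the Irx5KO peak (31806021 to 31806800, 780 bp) and the WT peak (31806291 to 31806740, 450 bp) both covered all 240 bases, which hold 29 CpG. The start of Tbx1 lay in an Irx5KO-only peak of 510 bp (18590361 to 18590870), at percentile 39.7, and the nearest WT peak was 760 bp away. Its 240 bases hold 7 CpG.

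The 2 starts of Runx1, which lie 128.7 kb apart, differed in both lists. The inner one, at 92697329, had an Irx5KO peak of 660 bp (92697231 to 92697890, percentile 62.5) and a WT peak of 210 bp (92697271 to 92697480, percentile 18.8). No peak of either list reached the distal one at 92826074, where the nearest Irx5KO peak was 2357 bp away and the nearest WT peak 1644 bp away. The inner 240 bases hold 67.9% GC and 27 CpG, and the distal ones 45.8% GC and 2 CpG. For the 300 bases of the table the ratio of observed to expected CpG was 1.01 at the inner and 0.137 at the distal start, beside a median of 0.384 over all promoters.

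The 14 promoters were searched on both strands for 9 letter patterns known for factor families. The Iroquois pattern ACANNTGT was found in 1 of 14, where 7.38% of all promoters hold it. The RUNX pattern TGTGGT was found in 4 of 14 (16.8% of all promoters). The GC box GGGCGG was in 6 (35.7%), the CCAAT box in 7 (37.4%) and the NFI pattern TTGGC in 7 (46.7%). The SOX pattern AACAAT was in 1 (10.7%) and the LIM homeodomain pattern TAATTA in 2 (5.29%). The TATA pattern TATAAA (13.6% of all) and the forkhead pattern GTAAACA (3.65%) were in none. Some matches overlap, since CCAAT on the reverse strand shares bases with TTGGC. In the printed bases, counted from 1 at the 5′ end, Lhx2 holds GGGCGG at 128, 175 and 187, all within its capitals. Foxc1 holds TGTGGT at 63, the reverse of CCAAT at 150 and GGGCGG at 172. The inner Runx1 start holds CCAAT at 103 and its reverse at 160, both inside the peaks. The distal start, which no peak reached, also holds CCAAT in either orientation, at 186 and 197, and TTGGC at 187 and 196. TTGGC, on either strand, is also inside the peaks, at 139 in Lhx2, 151 in Foxc1 and 102 and 161 in the inner Runx1 start. Tbx1 holds none of the 9 patterns. A match is a string of letters and shows no binding.

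Around the 10 genes lay 334 Irx5KO peaks and 265 WT peaks, of which 199 and 200 were shared. Of the Irx5KO peaks 135 were Irx5KO-only, or 40.4% (35.3 to 45.8), beside 23.9% over the windows of all coding genes and 21.8% over the whole list. Of the WT peaks 65 were WT-only, or 24.5% (19.7 to 30.0), beside 26.5% and 26.6%. Together 67.5% (60.7 to 73.6) of the genotype-only peaks were Irx5KO-only, where 47.1% were over all coding genes. Irx5KO peaks covered 167.5 kb and WT peaks 125.6 kb, a ratio of 1.33 beside 0.988 for all coding genes. Irx5KO-only peaks outnumbered WT-only peaks at 9 of 10 genes, with Tbx1 as the exception, where 46.6% of all coding genes show that order and 41.3% the opposite one. The median difference per gene was 4 peaks for the 10 genes and 0 for all coding genes. Differences per gene, here and below, are raw counts and were not scaled to window length or number of peaks. Windows of the 10 genes ran from 104 kb at Foxc1 to 697.4 kb at Foxp1. Nfix alone held 38 of the 135 Irx5KO-only peaks. Without it the share was 62.2% (54.4 to 69.4), with 8 of 9 genes in the same order.

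**Figure D1:**
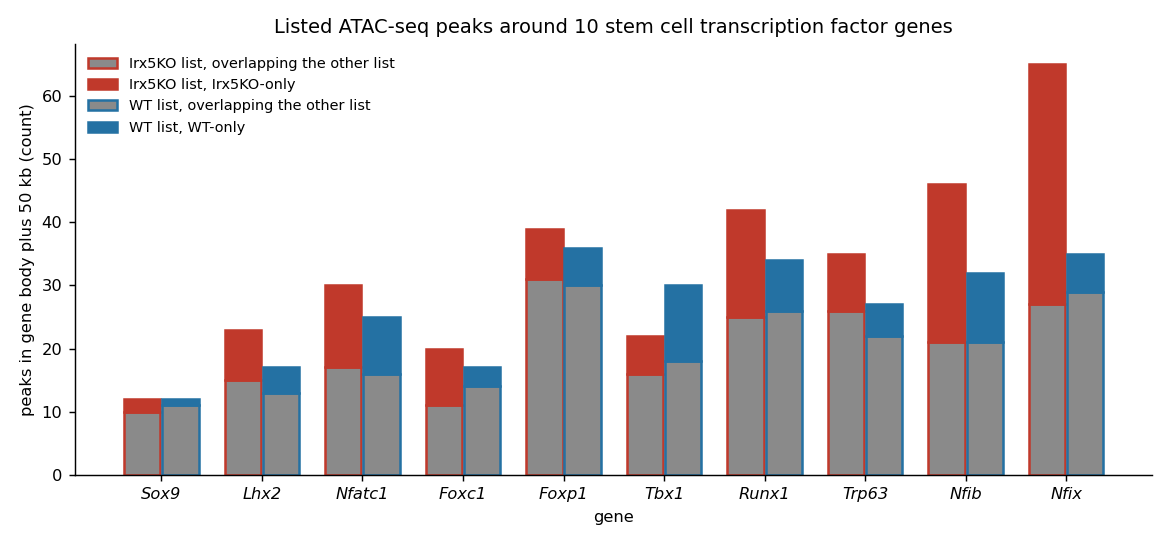
Number of peaks in the gene body plus 50 kb on each side for each of the 10 genes, with the Irx5KO list as the left and the WT list as the right bar of each pair. Grey marks peaks that overlap the other list and colour those on 1 list only; the coloured part is larger for Irx5KO at 9 genes and for WT at Tbx1, and Nfix stands out with 38 Irx5KO-only against 6 WT-only peaks.

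The excess was counted separately for gene bodies and flanks, and the difference between them was not tested. Inside the genes the counts were 81 Irx5KO-only and 26 WT-only, so that 75.7% (66.8 to 82.8) were Irx5KO-only. In the flanks they were 54 and 39, or 58.1% (47.9 to 67.6), and the intervals overlap. Over all coding genes these shares were 48.2% and 45.6%, with each peak counted once, as body or as flank. The flanks of the chosen genes, by contrast, include bodies of neighbouring genes such as Gnb1l and Gmds. The split into body and flank is therefore not the same in the 2 sets. Without Nfix the shares at the chosen genes were 69.6% (58.8 to 78.7) and 54.5% (43.5 to 65.2), also with overlapping intervals.

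**Figure D2:**
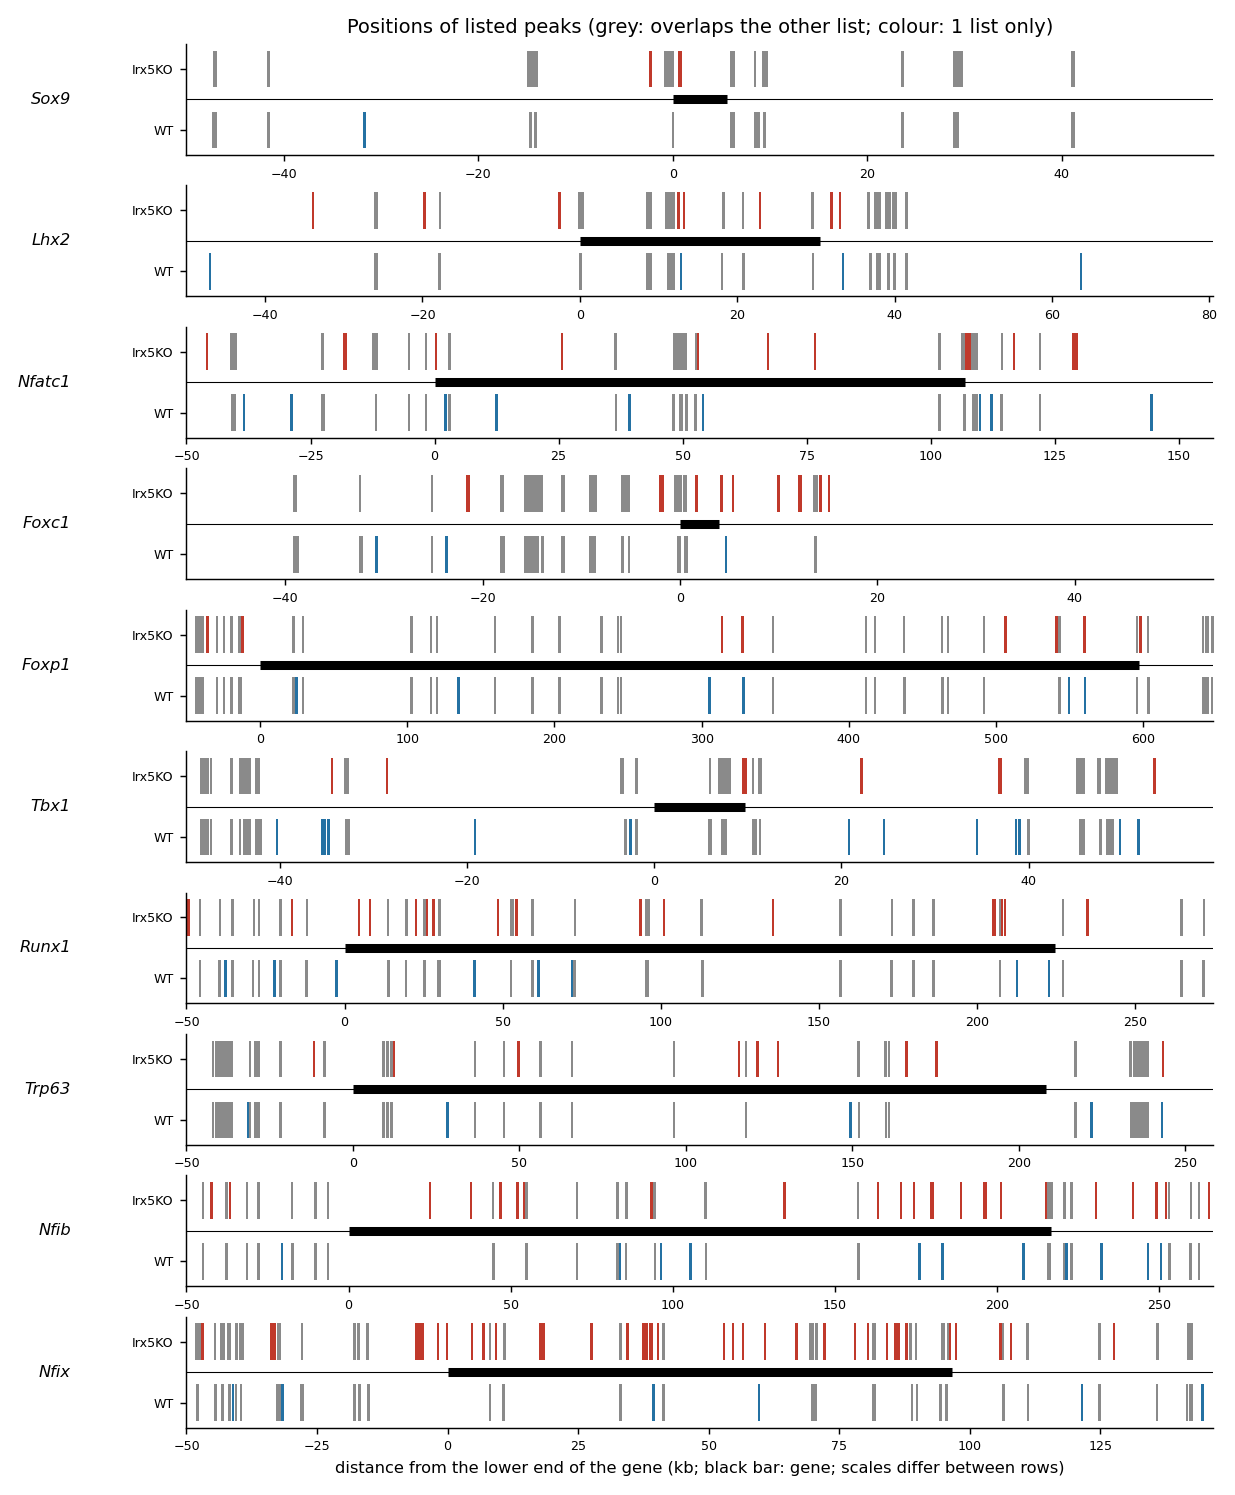
Position of each listed peak along the window of each gene, in kb from the gene end with the lower coordinate, with the Irx5KO list above and the WT list below the gene (black bar). Grey peaks overlap the other list and coloured ones do not; red marks crowd the body of Nfix and of Nfib, blue marks are most frequent in the flanks of Tbx1, and the distance scale differs between rows.

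Among the identity factors, Sox9 encodes the HMG-box factor needed to form the stem cell pool. At Sox9 (chromosome 11, 112782210 to 112787757) each list held 12 peaks, of which 2 were Irx5KO-only and 1 was WT-only. The highest-scored peak was shared and lay 35.4 kb beyond the higher gene end, at 112823171 to 112823580 in Irx5KO (percentile 88.8) and 112823151 to 112823580 in WT (89.4). The Irx5KO-only peaks flanked the lower gene end, at 112779801 to 112780050 and 112782761 to 112783120. Between them lay a shared region listed over 1070 bp in Irx5KO (112781301 to 112782370) and over 220 bp in WT (112782141 to 112782360). The WT-only peak, 230 bp wide, lay from 112750381 to 112750610.

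Lhx2 encodes a LIM homeodomain factor that maintains HFSC. At Lhx2 (chromosome 2, 38339271 to 38369737) the Irx5KO list held 23 peaks, 8 of them Irx5KO-only, and the WT list 17, 4 of them WT-only. No Lhx2 peak ranked high. The top one was at percentile 53.6 in Irx5KO (38313061 to 38313580, upstream) and at 55.3 in WT (38350321 to 38351410, on the inner start). All 11 regions listed as 1 peak in each genotype were wider in Irx5KO, by a median of 80 bp.

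Trp63 encodes p63, the factor on which stratified epithelia depend. At Trp63 (chromosome 16, 25683763 to 25892088) the lists held 35 Irx5KO peaks, with 9 Irx5KO-only, and 27 WT peaks, with 5 WT-only. The broadest open blocks were shared and lay outside the gene, and neither gene end had a peak. One WT peak of 5950 bp (25917091 to 25923040, percentile 95.3) was the highest of its list in the window. The Irx5KO list has 4 peaks over the same block, of 1070, 2110, 940 and 1850 bp, with the first of them (25916861 to 25917930, percentile 93.6) the highest. Covered length was 22.0 kb in Irx5KO and 21.2 kb in WT, so the lists differed less in length than in number of peaks here. The highest genotype-only peaks were at percentile 55.6 in Irx5KO (25671981 to 25672200) and 53.5 in WT (25712081 to 25712350).

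Nfib and Nfix encode nuclear factor I proteins of the HFSC program. At Nfib (chromosome 4, 82290173 to 82506751) the Irx5KO list held 46 peaks, 25 of them Irx5KO-only, and the WT list 32, 11 of them WT-only. Inside the gene these were 18 Irx5KO-only and 6 WT-only. Of all coding genes 99.8% had the same or a smaller difference. The top peak was shared, lay past the lower gene end, and began at 82261921 in both lists (900 bp at percentile 86.9 in Irx5KO, 980 bp at 90.6 in WT). The higher gene end lay in a shared peak of 1920 bp in Irx5KO (82505431 to 82507350) and 1310 bp in WT (82505611 to 82506920). The highest Irx5KO-only peak of Nfib was at percentile 42.9 of its list (82470051 to 82470260) and the highest WT-only peak at 53.4 of its own (82473201 to 82473460).

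Nfix (chromosome 8, 84704712 to 84801238) had the largest difference of all 21887 coding genes, with 65 Irx5KO peaks against 35 WT peaks. Of these 38 were Irx5KO-only and 6 WT-only, a share of 86.4% (73.3 to 93.6), and 26 of the 38 and 2 of the 6 lay in the gene. Irx5KO peaks covered 28.4 kb and WT peaks 13.9 kb. The highest-ranked Irx5KO-only peak was at percentile 49.6 (84743611 to 84743960), 70 bp from a WT peak. The window is dense in genes, among them Ier2, Nacc1, Trmt1, Lyl1 and Calr, and 8 of the 38 Irx5KO-only peaks lay at ends of other genes. The top peak, shared, lay at Calr, at 84846371 to 84847510 for Irx5KO (percentile 84.8) and 84846751 to 84847370 for WT (66.4). In the gene body the top peak was also shared and was 720 bp wide in Irx5KO (84745681 to 84746400, percentile 72.1) and 320 bp in WT (84745891 to 84746210, 49.6). The 4 Nfix starts in the table lie 21.2 to 28.4 kb inside the gene from its 5′ end, and none carried a peak. A shared region of 890 bp in Irx5KO (84773981 to 84774870) and 840 bp in WT (84774221 to 84775060) lay between the starts at 84773410 and 84775828. Within 1000 bp of the gene ends lay 4 Irx5KO peaks, 3 of them Irx5KO-only, and 1 WT peak. At the 5′ end, 84801238, these were a shared region (84800411 to 84800710 in Irx5KO, 84799961 to 84800550 in WT) and Irx5KO-only peaks at 84800811 to 84801040 and 84801901 to 84802170.

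Tbx1 encodes a T-box factor that supports HFSC self-renewal, and it was the only gene of the 10 with more WT-only peaks. At Tbx1 (chromosome 16, 18580979 to 18590671) the lists held 22 Irx5KO peaks, with 6 Irx5KO-only, and 30 WT peaks, with 12 WT-only. Of all coding genes 11.4% had the same or a lower difference of Irx5KO-only minus WT-only peaks. All 12 WT-only peaks lay in the flanks, where Gnb1l, Gp1bb and Septin5 also lie, and 3 of them at ends of other genes. Covered length was near equal, 12.4 kb in Irx5KO and 11.9 kb in WT. Both annotated starts of Tbx1 were reached by Irx5KO peaks only. At the inner one, 18588899, a shared Irx5KO peak of 1330 bp covered the start, and its WT counterpart (18588061 to 18588740) ended 159 bp short of it. The top peak of both lists lay in Gnb1l at percentile 99.9, with borders at 18532451 and 18533350 in Irx5KO and at 18532401 and 18533350 in WT. The highest-ranked genotype-only peak of Irx5KO in all 10 windows was also here, upstream at 18602921 to 18603300 (percentile 77.9), 1030 bp from a WT peak.

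Nfatc1, Foxc1 and Foxp1 keep HFSC at rest. Nfatc1 encodes a calcium-regulated factor of quiescence and lies on chromosome 18 from 80606205 to 80713071. Its window held 30 Irx5KO peaks, 13 of them Irx5KO-only, and 25 WT peaks, 9 of them WT-only. The top peak was shared and lay in the gene, at percentile 98.0 in Irx5KO (80658661 to 80659140) and 99.7 in WT (80658551 to 80659170). At the higher gene end a shared region (80712341 to 80713210 in Irx5KO, 80712641 to 80713230 in WT) was followed by 2 Irx5KO-only peaks, from 80713281 to 80713580 and from 80713881 to 80714190. A weak Irx5KO-only peak at percentile 2.11 lay at the lower end. The highest WT-only peak of all 10 windows, at percentile 79.2, lay in the neighbouring gene Atp9b (80750451 to 80750970), 14670 bp from any Irx5KO peak. Within Nfatc1 an Irx5KO-only peak at percentile 57.7 (80673171 to 80673600) lay 12700 bp from any WT peak.

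Foxc1 encodes a forkhead factor that limits HFSC activation. At Foxc1 (chromosome 13, 31806646 to 31810635) the lists held 20 Irx5KO peaks, with 9 Irx5KO-only, and 17 WT peaks, with 3 WT-only. The counts differed between the sides of the gene, which was not tested. Upstream lay 10 Irx5KO peaks, 2 of them Irx5KO-only, and 13 WT peaks, 2 of them WT-only. Downstream lay 7 Irx5KO peaks, 6 of them Irx5KO-only, and 2 WT peaks, 1 of them WT-only. These 6 ranked low, at percentiles 1.72 to 12.6, and the WT-only peak was at 15.7. The downstream flank also reaches into the neighbouring gene Gmds (31819583 to 32338762), and 1 of the Irx5KO-only peaks lay at its end. The top and widest region was upstream and shared, at 1910 bp in Irx5KO (31790871 to 31792780, percentile 84.6) and 1520 bp in WT (31790891 to 31792410, percentile 83.9).

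Foxp1 encodes a forkhead factor tied to quiescence and is the longest of the 10 genes. At Foxp1 (chromosome 6, 98925342 to 99522746) lay 39 Irx5KO peaks, 8 of them Irx5KO-only, and 36 WT peaks, 6 of them WT-only. Downstream of the gene, 38.0 kb away, both lists had a region of almost the same borders, starting at 98881431 in Irx5KO and at 98881411 in WT and ending at 98887340 in both, at percentile 98.1 in each. Only the Irx5KO list had a peak within 1000 bp of a Foxp1 end, a 260 bp peak at percentile 12.6 (99523351 to 99523610). The highest Irx5KO-only peak lay in the gene at percentile 71.0 (99239221 to 99239480), and the highest WT-only peak, also in the gene, at 43.5 (99059951 to 99060190). Of the 3 annotated starts, those at 99520993 and 99028298 had peaks of both lists and the one at 99266515 had none.

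Runx1, the factor known for promoting activation, lies on chromosome 16 from 92601466 to 92826074. Its window held 42 Irx5KO peaks, 17 of them Irx5KO-only, and 34 WT peaks, 8 of them WT-only. Of all coding genes 98.1% had the same or a smaller difference. Inside the gene lay 14 Irx5KO-only and 5 WT-only peaks. The top peak differed between lists. In Irx5KO it was in the gene (92714001 to 92714800, percentile 95.6), where the WT peak was at 86.8 (92714141 to 92714990), and in WT it lay downstream (92561641 to 92562260, percentile 94.6). Irx5KO-only peaks in the gene at percentiles 65.1 (92655751 to 92655950) and 51.2 (92736871 to 92737080) were the highest-ranked Irx5KO-only peaks of this window, and the one at 51.2 lay 20830 bp from any WT peak. The highest WT-only peak was at percentile 32.8 of the WT list (92642441 to 92642640).

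At either annotated gene end, 7 of the 10 genes had a peak within 1000 bp in both lists, 1 (Foxp1) in Irx5KO alone, none in WT alone and 2 (Runx1 and Trp63) in neither. The shares over all coding genes were 75.2%, 6.07%, 3.99% and 14.7%. Peak density per 100 kb of window was highest at Nfix in Irx5KO (33.1 peaks, against 17.8 in WT) and at Tbx1 in WT (27.3 peaks, against 20.1 in Irx5KO). It was lowest at Foxp1, with 5.59 and 5.16 peaks, and the other 7 genes lay between 11.4 and 19.2 in Irx5KO and between 8.76 and 16.3 in WT. With 1 list per genotype, no spread over samples can order genes of similar density.

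Peaks around these genes ranked lower than peaks near coding genes in general. The median percentile was 29.4 in Irx5KO and 29.9 in WT, beside 47.1 and 47.3 for all peaks near coding genes. Genotype-only peaks ranked lowest, at medians of 13.5 and 14.7, where shared ones were at 44.9 and 37.6. Among the 50% of peaks with the highest scores in each list, 7 of 92 Irx5KO peaks were Irx5KO-only and 4 of 78 WT peaks WT-only, where over all coding genes 3.91% and 4.85% were. Low scores went with absence from the other list in both genotypes. When the list-wide share in each score decile was applied to the scores found here, 33.0% Irx5KO-only and 37.9% WT-only peaks came out, against the 40.4% and 24.5% counted. Only 39 of the 135 Irx5KO-only peaks, or 28.9% (21.9 to 37.0), lay within 1 kb of a WT peak, beside 41.7% list-wide. For WT-only peaks this was 23 of 65, or 35.4% (24.9 to 47.5), beside 42.8%.

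**Figure D3:**
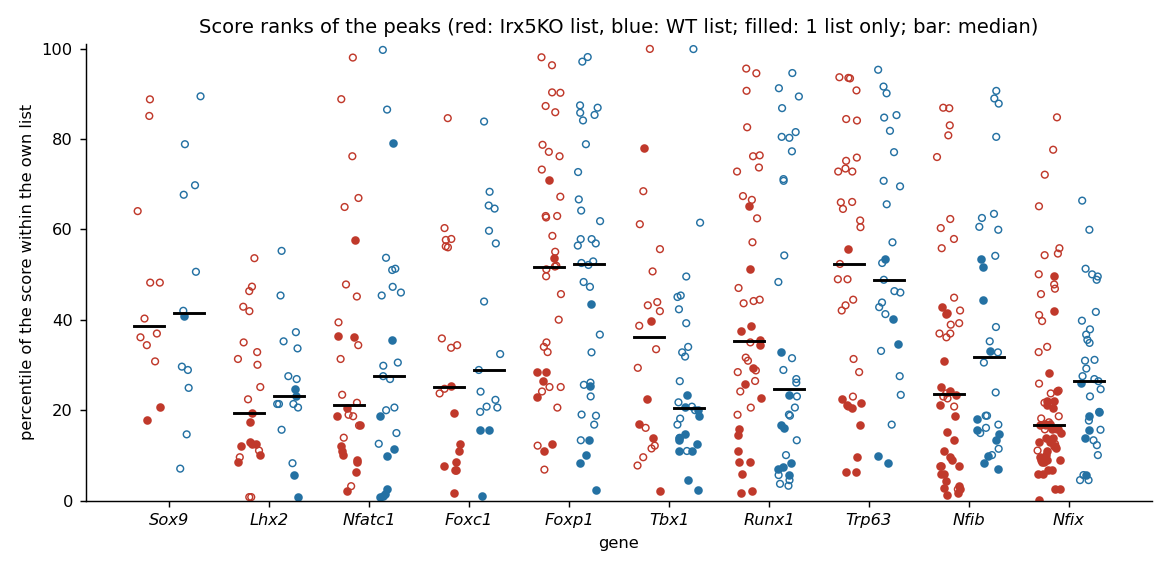
Percentile of each peak's score within its own list, for the 10 genes, with the Irx5KO list in red and the WT list in blue; filled points are on 1 list only, open points are shared, and bars are medians. Filled points lie mostly near the bottom (medians 13.5 and 14.7), peaks above percentile 90 occur at 5 genes in Irx5KO and 6 in WT, and ranks of different lists give no change between genotypes.

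Shared regions also differed in width. In the 10 windows, 173 regions were listed as 1 peak in each genotype and overlapped one to one. The Irx5KO peak was the wider at 100 of them, the WT peak at 58, and 15 had the same width. The Irx5KO peak was wider in 57.8% (50.4 to 64.9), where this held for 43.8% of 172906 such pairs near all coding genes. Median widths were 460 bp in Irx5KO and 390 bp in WT, and 460 bp in both over all coding genes. Pairs of the 10 windows and pairs near all coding genes were not matched for score, and peaks of the 10 windows ranked lower. By gene, the Irx5KO peak was wider at 11 of 11 pairs of Lhx2, 17 of 24 of Runx1, 15 of 23 of Nfix, 10 of 15 of Nfatc1 and 6 of 8 of Foxc1. At Sox9, Foxp1 and Trp63 it was so at 4 of 9, 12 of 29 and 7 of 19, at Tbx1 at 8 of 14 and at Nfib at 10 of 21. The positions of the peak points given in the lists lay within 100 bp of each other for 125 of the 173 pairs, or 72.3%, beside 75.2% over all coding genes.

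**Figure D4:**
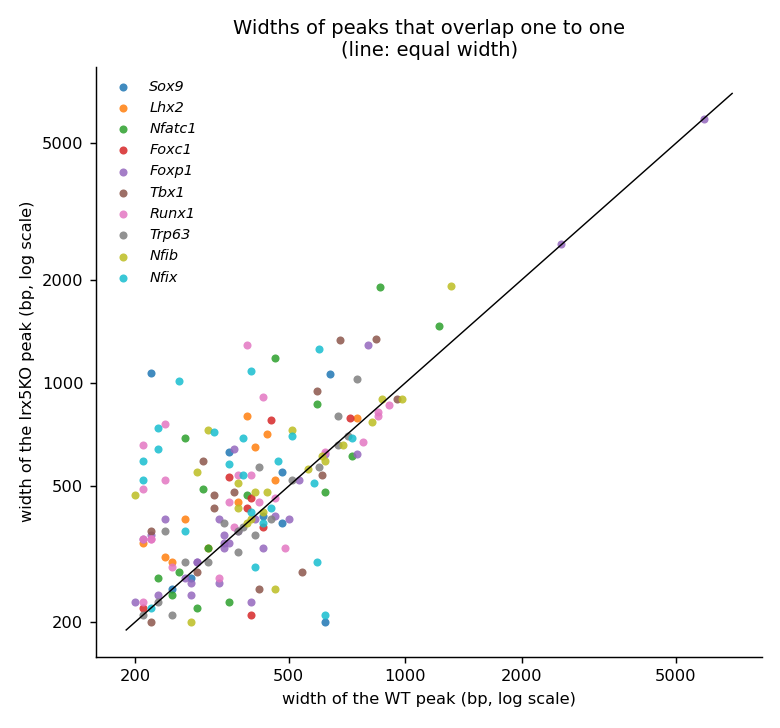
Width in bp of the Irx5KO peak against that of the WT peak for the 173 one-to-one pairs, on log axes, with 1 point per pair, colour by gene and a line at equal width. Of the points 100 lie above the line and 58 below it; the pair of almost equal width with the greatest width belongs to Foxp1.

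Gene lists of 3 other kinds were set beside the 10 genes. For 21 relatives and partners of the factors (such as Sox8, Nfatc2, Foxp2, Runx2, Trp73 and Nfia) the Irx5KO-only share was 52.8% (47.6 to 58.0), with 187 Irx5KO-only and 167 WT-only peaks. For 22 other factors of skin epithelium it was 60.3% (55.4 to 65.0), with 243 and 160, and this interval overlaps that of the 10 genes. For 20 factors of other lineages it was 52.4% (46.5 to 58.3), with 141 and 128. Over all coding genes it was 47.1%. Of the Irx5KO peaks of these lists in turn, 34.5%, 34.9% and 39.3% were Irx5KO-only, beside 40.4% at the 10 genes. Their score deciles gave 29.9%, 29.25% and 29.6%, beside 33.0% at the 10 genes. Of the WT peaks 31.5%, 25.9% and 36.3% were WT-only, beside 24.5%. Here score deciles gave 36.2%, 34.3% and 32.7%, beside 37.9%. Irx5KO-only peaks were the more frequent at 11 of 21, 15 of 22 and 12 of 20 genes (52.4%, 68.2% and 60%), beside 46.6% of all coding genes. Median differences were 1, 2.5 and 1.5 peaks, beside 0 over all coding genes. Covered length in Irx5KO over WT was 1.09, 1.18 and 1.08, so the ratio of 1.33 at the 10 genes was the highest of the 4 lists. That ratio includes Nfix, with 28.4 kb against 13.9 kb. Without Nfix the Irx5KO-only share was 62.2% (54.4 to 69.4), near the 60.3% of the skin epithelium factors.

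The list genes named next were picked for the largest differences in each direction, so they show extremes and not the typical relative. Of the 21 family members 11 had more Irx5KO-only peaks, 8 more WT-only peaks and 2 the same number. Nfic, the relative of Nfib and Nfix, had 15 Irx5KO-only and 5 WT-only peaks, whereas their relative Nfia had 17 and 22. Foxp2, the relative of Foxp1, had 25 Irx5KO-only and 39 WT-only peaks. Nfatc2 had 11 and 3, and Tbx3 had 6 and 10. Trp73, the relative of Trp63, had 18 and 9, and its gene ends carried 4 Irx5KO peaks and 0 WT peaks. Among skin epithelium factors the differences were greatest at Tcf7l1, a repressor of Wnt targets in the bulge (27 and 8), Vdr, the vitamin D receptor (21 and 8), and Cux1 (21 and 9). Barx2 (6 and 9), Klf5 (5 and 7) and Ovol2 (7 and 9) had more WT-only peaks. Of factors of other lineages, Nkx2-5 of the heart had 8 and 1, Cdx2 of the gut 10 and 5, and Pou5f1 of pluripotent cells 13 and 8. Gata1 of blood had 10 and 21, and Neurog1 of sensory neurons 2 and 6. Marker genes of HFSC and of other cells both held more Irx5KO-only than WT-only peaks. At the 6 HFSC markers, summed over genes so that a peak near several of them counts for each, these were 46 and 18, with 9 and 1 at Krt15, 11 and 5 at Krt14, 7 and 3 at Krt5, 7 and 1 at Itga6 and 10 and 4 at Lgr5, and 2 and 4 at Cd34 as the exception. At the 14 markers of other cells they were 103 and 79, with 14 and 4 at Tyr, 12 and 3 at Pecam1, 5 and 0 at Cd3e and 8 and 4 at Pdgfra. Of these 14 genes 8 had more Irx5KO-only peaks and 3 the same number. The other 3 had more WT-only peaks, with 2 and 4 at Krt1, 4 and 10 at Cd74 and 8 and 9 at Cdh5. Over all coding genes 46.6% had more Irx5KO-only and 41.3% more WT-only peaks. There 47.1% of genotype-only peaks, each counted once, were Irx5KO-only.

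**Figure D5:**
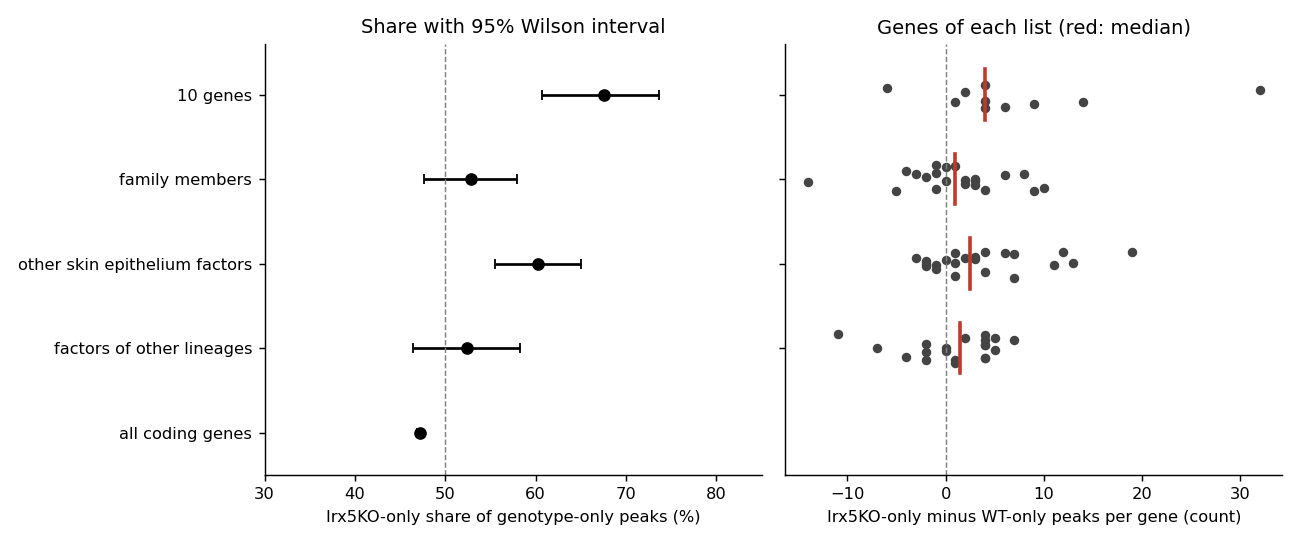
Left, the percentage of genotype-only peaks that are Irx5KO-only, with 95% Wilson intervals, for the 10 genes, 3 other gene lists and all coding genes. Right, Irx5KO-only minus WT-only peaks for each gene of the 4 lists, with the median in red; the 10 genes lie at 67.5% against 47.1% for all coding genes, and the point at 32 is Nfix.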

How the data were processed

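Reads were processed on mm10 with, per the submitters' processing notes, Genrich 0.6, Bowtie2, cutadapt 2.9 and FastQC, and also ChIPseeker 1.24.0 and deepTools 3.4.2. What each tool did, the peak settings and any Tn5 shift were not given in the sources used here. Per the labels' protocols, 80000000 reads were sequenced per sample; depth per list is unknown. The authors deposited 1 list per genotype with position, peak point and a score of at least 50, while signal, p-value and q-value columns hold only 0 and were not used. Peaks listed at different depths or thresholds differ in number and width, and scores were compared only within a list.

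Gene spans came from a RefSeq table of GRCm38 without exons, so introns and exons were not told apart. Windows, overlaps, percentiles and Wilson intervals were computed with Python 3.11.15, numpy 2.4.6, pandas 2.3.3 and scipy 1.17.1, tested on simulated data and checked against bedtools 2.31.1; plots used matplotlib 3.10.9. A gene-end peak overlaps 1000 bp on either side of a gene end. Named list genes are the 3 with the largest differences in each direction in each list. Some genes in reach of this rule are not reported here. Members and gene lists were chosen with earlier results of these data known. Alternatives changed the score threshold, flank, overlap rule, gene-end window, peak width and list length.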

Additional observations from a re-analysis of the deposited data

How the results depend on the processing

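No paired analysis was possible because each genotype was deposited as 1 list that joins both samples, and for the same reason no sample could be left out. The Irx5KO-only share of genotype-only peaks stayed above 50% under every alternative tried, from 62.2% without Nfix to 75.2% with flanks of 10 kb. It was 66.3% with flanks of 100 kb, 67.5% for peaks of at most 2000 bp, 70.3% with lists of equal length, 67.2% with an overlap of 50%, 69.1% when gaps up to 200 bp counted as overlap and 70.3% for peaks nearest to their own gene. The settings without Nfix and with peaks nearest to their own gene were chosen after seeing the data. Among the 50% of peaks with the highest scores the share was 63.6% (35.4 to 84.8), so at that threshold an excess was not detectable. There the windows held 92 Irx5KO and 78 WT peaks, of which 92.4% and 94.9% were shared and 7 and 4 were on 1 list only. Gene-end peaks were then found at 2 genes in Irx5KO and 0 in WT, 3 genes had more Irx5KO-only peaks, and the share for factors of other lineages was 37.0%. With flanks of 10 kb there were 215 Irx5KO and 148 WT peaks, 53.5% of the Irx5KO peaks were shared, 33 peaks were WT-only, and the share for family members was 47.1%. With an overlap of 50% of the peak, 50.3% of Irx5KO and 69.4% of WT peaks were shared. Against 50%, the family members and the factors of other lineages had no set direction, and their main intervals span 50%. The share of 47.1% over all coding genes lay below the main family interval (47.6 to 58.0) and inside that of other lineages (46.5 to 58.3). Family members were also at 48.4% among the 50% of peaks with the highest scores. With lists of equal length they were at 56.0% (50.7 to 61.2). Factors of other lineages were at 48.7% and 49.0% with flanks of 10 and 100 kb, and at 55.6% (49.5 to 61.6) with equal length. These alternatives for the gene lists were chosen after seeing the data. With gene-end windows of 3000 bp, 9 genes had a peak in each list. Limiting peaks to 2000 bp in width moved the highest percentile at Foxp1 to 90.3 in Irx5KO and 87.4 in WT and that at Trp63 in WT to 91.6. Read depth per list is not known, so how much of the difference in number and width depth could set was not tested.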
